A study of Mus musculus with 7 samples.

Results

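Integrins are the adhesion receptors described here, through the messenger RNA of 10 of their chains: 6 alpha chains (Itgae, Itgal, Itga1, Itga2, Itga4 and Itga6) and 4 beta chains (Itgb1, Itgb2, Itgb3 and Itgb7). The chains were chosen by gene symbol, and all 10 were among the 24084 genes of the deposited count table. The samples were regulatory T cells (Tregs), the suppressive CD4 T cell lineage marked by the transcription factor Foxp3. There were 4 libraries from telogen skin, that is skin in the resting phase of the hair cycle, and 3 from skin-draining lymph nodes (SDLN). All mice were 6 weeks old and of the Foxp3-DTR/GFP strain, in which the Foxp3 gene also drives the diphtheria toxin receptor and a green fluorescent protein, and no library came from mice without this allele. No toxin or other treatment is named in the labels, and neither the sorting gates nor the number of animals behind each library is given in the sources used here.

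An integrin is a pair of 1 alpha and 1 beta chain, and each chain reaches the cell surface only in such a pair. Itgae (CD103) pairs with Itgb7 and binds E-cadherin on epithelial cells. Itga4 pairs with Itgb7 to bind MAdCAM-1 on gut vessels, or with Itgb1 to bind VCAM-1 and fibronectin. Itgal pairs with Itgb2 to form LFA-1, the receptor for ICAMs that T cells use to stop on vessels and to hold on to antigen-presenting cells. With Itgb1, the chains Itga1 and Itga2 form collagen receptors and Itga6 a laminin receptor. Itgb3 pairs with Itgav or, in platelets, with Itga2b.

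The libraries held 11009600 to 13921200 gene counts in skin and 13123200 to 14785800 in SDLN, rounded to 6 digits. Correlations of log2 CPM (counts scaled to library size) across tested genes were 0.624 to 0.699 between skin libraries, 0.964 to 0.981 between SDLN libraries and 0.617 to 0.700 between a skin and an SDLN library. At least 1 count was found for 9690 to 12639 genes in skin and 13408 to 13845 genes in SDLN. For skin 1 the title and source name say skin but one tag gives the lymph node as tissue. SDLN 3 held 3877 counts of the Y-linked gene Ddx3y, against at most 2 in any other library. Of Xist, an RNA of female cells, it held 4 counts, against 4653 to 11758 in the other libraries. By these genes SDLN 3 was male and the other libraries female, and the part of sex in the values was not tested. The 10 markers of T cells and Tregs were detected in both tissues, with Lck the most abundant, and summed to 7607 to 12048 CPM in skin and 12663 to 14432 CPM in SDLN, lowest in skin 3. Foxp3, Ikzf2 and Tigit averaged 169, 2938 and 903 CPM in skin, against 89.0, 1320 and 263 CPM in SDLN. The other 7 of these markers, Lck among them, had lower means in skin. Keratinocyte markers summed to 1410.0 CPM in skin 3 and to 21.1, 25.5 and 27.5 CPM in skin 1, 2 and 4, against 8.65 to 10.1 CPM in SDLN, with Krt17 at 542 CPM in skin 3 and no counts in skin 1, 2 and 4. Fibroblast markers summed to 221 CPM in skin 3 and at most 7.36 CPM in the other skin libraries, against 8.11 to 16.2 CPM in SDLN, with Dcn at 109.6 CPM in skin 3. Markers of macrophages and dendritic cells summed to 767 to 10357 CPM in skin, highest in skin 4, against 343 to 548 CPM in SDLN. Cd74 made up most of that sum, and Cd207, the Langerhans cell marker, had no count in skin.

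The skin minus SDLN comparison asks which adhesion receptors differ between Tregs in a tissue and those in the nodes that drain it. Of the 10 chains, 1 passed the test, Itgae, which was higher in skin, and 9 did not (edgeR quasi-likelihood test, Benjamini-Hochberg adjusted p under 0.05 over 11376 genes). Over all tested genes, 7.24% passed, 3.28% higher in skin and 3.96% lower. At an unadjusted p under 0.05 there were 3 chains higher (Itgae, Itgb7 and Itga2) and 3 lower (Itga4, Itga6 and Itgb2). The share of all genes at that threshold is not given here, so these counts are a description alone. DESeq2 called 4 chains higher and 1 lower, beside 923 higher and 507 lower of all genes. Limma-voom called 1 chain higher and 1 lower, beside 271 higher and 729 lower of all genes. The libraries of the tissues did not overlap for 5 of the 10 chains, Itgae and Itgb7 being higher in every skin library and Itga4, Itga6 and Itgb2 lower, beside 26.6% of all tested genes. The median log2 fold change, skin over SDLN, was 0.01 over the 10 chains and 0.05 over all genes tested. Bulk libraries cannot tell fewer cells with a transcript from less of it per cell. Nothing in the labels says that libraries came from separate animals, so p-values measure the spread between these libraries.

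**Figure D1:**
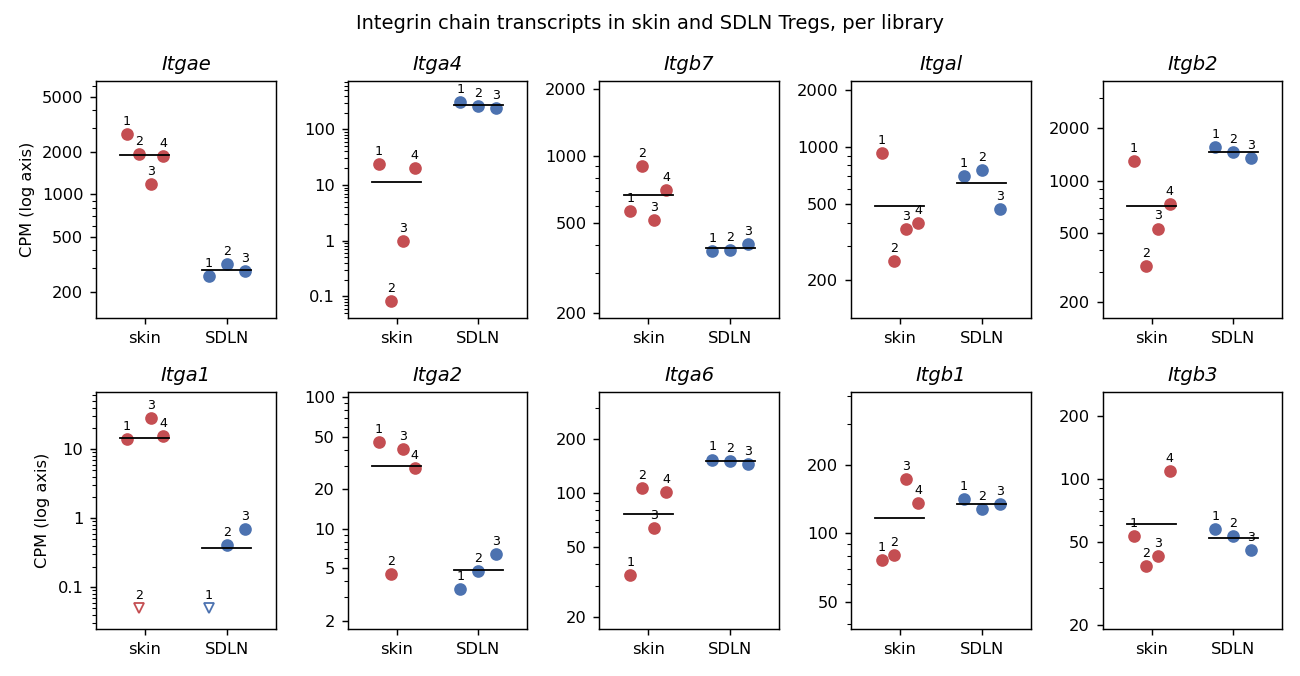
CPM of the 10 integrin chains (vertical log axis, one scale per panel) in the 4 skin and 3 SDLN libraries, numbered by replicate, with a line at the mean and open triangles at the bottom for libraries with no count. Itgae and Itgb7 lay higher in every skin library, and Itga4, Itga6 and Itgb2 lay lower in every skin library, with Itga4 spread from 0.0809 to 24.3 CPM over skin.

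**Figure D2:**
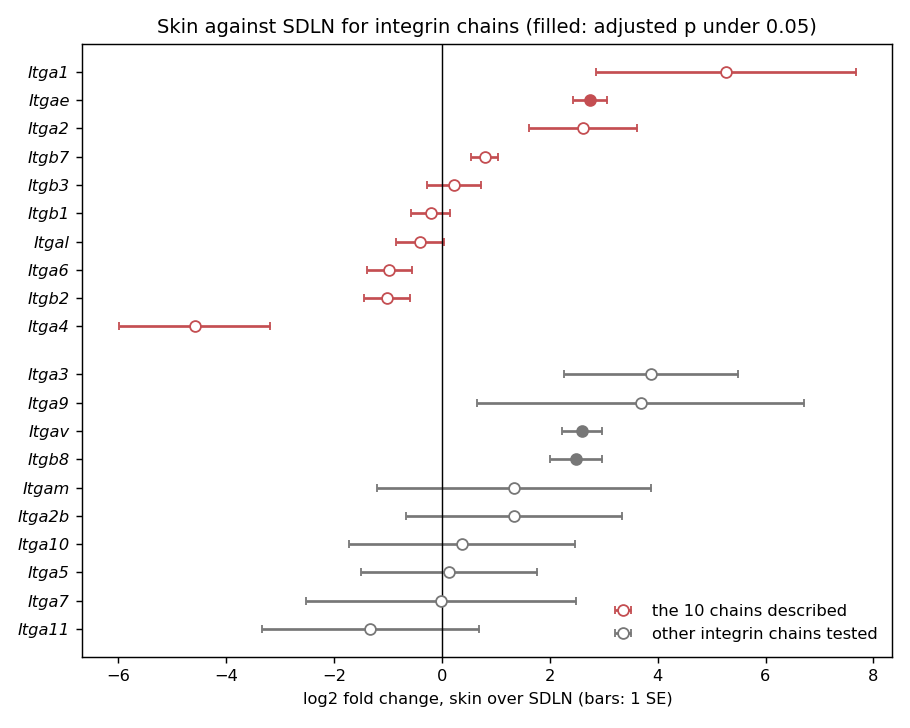
Log2 fold change, skin over SDLN (horizontal axis), with 1 standard error for the 10 chains (red) and for the 10 other integrin chains that were tested (grey), and filled points where the adjusted p was under 0.05. Itgae, Itgav and Itgb8 are the 3 filled points, and the bars of Itga1 and Itga4 are far longer than that of Itgae.

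Itgae, the alphaE chain of the E-cadherin receptor, was 6.69-fold higher in skin. It had 2699.6, 1948, 1193 and 1873 CPM in skin 1 to 4, against 261, 321 and 283 CPM in SDLN 1 to 3 (chromosome 11, 73090583 to 73147446, mm10). The lowest skin library therefore stood well above the highest SDLN library. The means were 1929 ± 616 CPM (SD, n = 4) in skin and 288 ± 30.2 CPM (SD, n = 3) in SDLN, with a log2 fold change of 2.74 (SE 0.32, edgeR adjusted p = 0.00610). Without SDLN 1 or SDLN 2 the adjusted p was 0.0615 and 0.0519 (9.27e-15 to 0.0749 over all alternatives), while it passed without any 1 of the skin libraries and without SDLN 3. CD103 is also carried by CD8 T cells, gamma delta T cells and some dendritic cells of skin. Markers of CD8 T cells summed to 0.0920 to 77.0 CPM in skin and 45.2 to 52.5 CPM in SDLN. Their most abundant gene, Cd8b1, had 0.0920, 13.7, 11.5 and 22.8 CPM in skin 1 to 4, against 36.1, 32.9 and 42.3 CPM in SDLN, and Cd8a had counts in skin 4 alone among the skin libraries. The part of CD8 T cells in the Itgae result was not tested. Of 6 gamma delta T cell markers the 2 in the table, Sox13 and Cd163l1, had no count in any library. The others, Trdc among them, were not in the table, and the part of gamma delta T cells in the Itgae result was not tested. Macrophage and dendritic cell markers were higher in skin, and their part in the Itgae result was not tested. Their sum was highest in skin 4 and lowest in skin 3, and Itgae was highest in skin 1 and lowest of the skin libraries in skin 3.

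Itgb7, the beta chain that Itgae needs, was also higher in every skin library. It had 569, 900.0, 518 and 704 CPM in skin 1 to 4, against 377, 379.9 and 405 CPM in SDLN 1 to 3 (chromosome 15, 102215995 to 102231944). Its means were 673 ± 171 CPM (SD, n = 4) in skin and 388 ± 15.4 CPM (SD, n = 3) in SDLN. With a log2 fold change of 0.80 (SE 0.25), it did not pass the test (edgeR adjusted p = 0.122), although it did with DESeq2 (adjusted p = 0.0400, and 0.0400 to 0.448 over all alternatives).

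Itga4, the other alpha chain of Itgb7, had far fewer counts in every skin library. It had 24.3, 0.0809, 0.970 and 20.04 CPM in skin 1 to 4, against 308, 268 and 239 CPM in SDLN 1 to 3 (chromosome 2, 79255426 to 79333123). Skin 2 held 1 count and skin 3 held 11, so the skin libraries fell into a pair near 20 CPM and a pair near or under 1 CPM. Its means were 11.3 ± 12.6 CPM (SD, n = 4) in skin and 271 ± 34.4 CPM (SD, n = 3) in SDLN. The log2 fold change was -4.58 (SE 1.40, edgeR adjusted p = 0.109), which did not pass with the spread over skin libraries. Itga4 passed with DESeq2 (adjusted p = 0.00211) and limma-voom (log2 fold change -6.60, adjusted p = 0.0222), and its adjusted p was 0.00211 to 0.265 over all alternatives. Among the 2320 genes that averaged 100 CPM or more in SDLN, 39 (1.68%) had at most 1 count in skin 2, and 10 to 20 did in each of the other skin libraries. Its exons share 1124 bases with Cerkl on the opposite strand, 8.04% of the exon length, and the strand setting of the counting is not given in the sources used here.

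The stretches before the starts of Itga4 and Itgb7 are shown because these 2 chains form 1 receptor yet differed between the tissues in opposite directions. They are RefSeq promoter windows (GRCm38.p6, the mm10 build), the 250 bases before the start site, 5′ to 3′ on the gene's strand, at chr2:79255176-79255425 (plus strand) and chr15:102231936-102232185 (minus strand). Capitals mark matches, on either strand, to TGANTCA (AP-1), TGTGGT (RUNX), CAGACA (SMAD) or GGAAGT (ETS). None of these 4 motifs overlapped another in these windows.
Itga4: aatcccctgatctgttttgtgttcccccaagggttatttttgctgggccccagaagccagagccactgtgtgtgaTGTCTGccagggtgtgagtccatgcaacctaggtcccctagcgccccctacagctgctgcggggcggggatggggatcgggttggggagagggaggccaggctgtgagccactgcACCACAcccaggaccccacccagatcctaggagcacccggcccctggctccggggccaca
Itgb7: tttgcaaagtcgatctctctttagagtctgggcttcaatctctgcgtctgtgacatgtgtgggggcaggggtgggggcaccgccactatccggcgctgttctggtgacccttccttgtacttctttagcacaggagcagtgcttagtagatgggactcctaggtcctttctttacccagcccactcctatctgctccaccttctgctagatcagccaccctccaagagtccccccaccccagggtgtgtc
The Itga4 window held 1 RUNX match and 1 SMAD match, both in the reverse orientation, 60 and 175 bases before the start. The Itgb7 window held none of the 4 motifs. Over all 32851 promoter windows of this length, 14.0% held the RUNX letters, 17.1% the SMAD letters, 19.7% the ETS letters and 6.75% the AP-1 letters.

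Because Itgae and Itga4 compete for Itgb7, their ratio within a library shows which alpha chain transcript prevails, whatever the library scaling. Per kb of exon, Itgae made up 99.7% to 99.9986% of the Itgae and Itga4 transcripts in skin, against 72.1% to 78.5% in SDLN. In log2 counts, Itgae over Itga4 stood at 6.79, 13.97, 10.20 and 6.54 in skin 1 to 4, against -0.24, 0.26 and 0.24 in SDLN 1 to 3. The tissues did not overlap, and the difference of means was 9.29, or 7.76 without skin 2, which held 1 Itga4 count (exact permutation p = 0.0286, two-sided, the smallest that 35 splits allow, and 0.103 adjusted over the 9 ratios computed). Itgae over Itgb7 also differed without overlap, at 2.25, 1.11, 1.20 and 1.41 in skin, against -0.53, -0.25 and -0.52 in SDLN. That difference of 1.93 is a 3.80-fold shift towards Itgae (exact permutation p = 0.0286, adjusted 0.103). Per kb, Itgae exceeded Itgb7 by 1.31 to 2.87 times in the skin libraries, whereas in the SDLN libraries it stood at 0.418 to 0.510 times the Itgb7 level.

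Itga4 was lower against both of its beta chains. Itga4 over Itgb7 averaged -7.88 ± 3.86 (SD, n = 4) in skin and -0.52 ± 0.23 (SD, n = 3) in SDLN on the log2 scale (exact permutation p = 0.0571, adjusted 0.103). Against Itgb1, the same chain averaged -5.30 ± 3.69 (SD, n = 4) in skin and 1.007 ± 0.15 (SD, n = 3) in SDLN (exact permutation p = 0.0571, adjusted 0.103). Neither ratio overlapped between the tissues. Without skin 2 the difference was -5.70 for Itga4 over Itgb7, against -7.36 with it, and -4.95 for Itga4 over Itgb1, against -6.31 with it. The ratio of the 2 beta chains themselves, Itgb7 over Itgb1, was 2.89, 3.48, 1.58 and 2.38 in skin, against 1.42, 1.56 and 1.598 in SDLN, so skin 3 lay among the SDLN libraries (difference 1.05, exact permutation p = 0.0857, adjusted 0.129). None of the 9 ratios passed the adjustment. Since 35 splits allow no exact permutation p under 0.0286, a ratio could pass only if most of the 9 stood at that floor. The adjusted values therefore cannot decide about a single ratio.

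**Figure D3:**
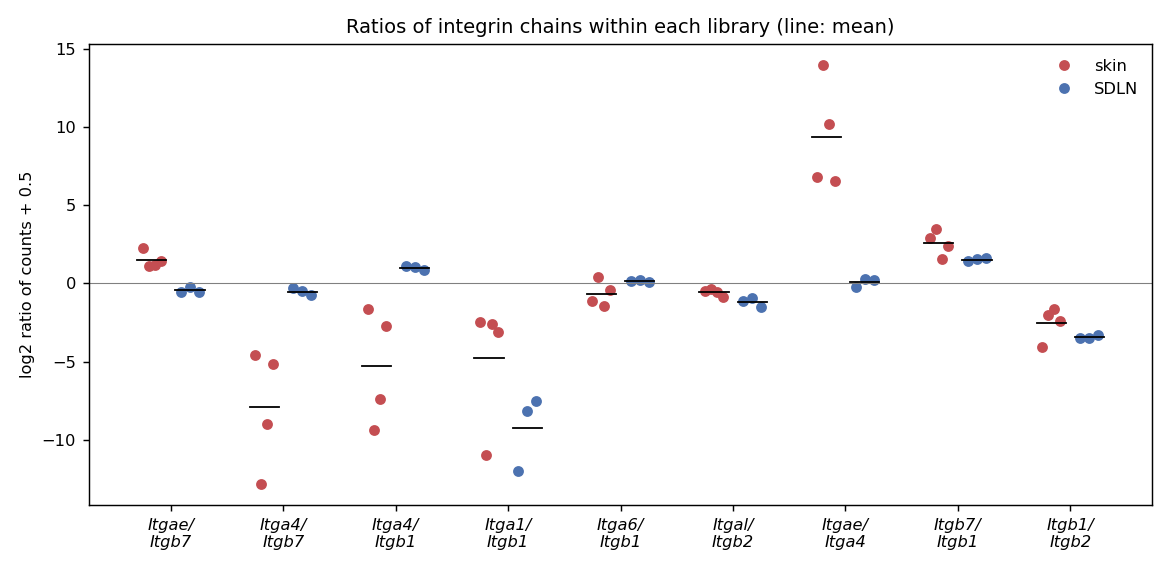
Log2 ratio of the counts of 2 chains in the same library, with 0.5 added to each count (vertical axis), for 9 pairs of chains, with skin left of SDLN and a line at the mean. Itgae over Itga4 and Itgae over Itgb7 lie higher in all 4 skin libraries, and both Itga4 ratios to beta chains lie lower in all 4.

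Itgb2, the beta chain of the leukocyte integrins, was lower in every skin library. It had 1290.2, 325, 531 and 731 CPM in skin 1 to 4, against 1557, 1461 and 1343 CPM in SDLN 1 to 3 (chromosome 10, 77530252 to 77565708). Skin 1 lay close under the SDLN libraries and the other skin libraries far below. The log2 fold change was -1.015 (SE 0.43, edgeR adjusted p = 0.254). Without skin 1 it was -1.46 and passed the test (adjusted p = 0.0339, and 0.0339 to 0.557 over all alternatives). Macrophages and dendritic cells carry Itgb2 too, and their markers were higher in skin. Their part in these Itgb2 values was not tested.

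Itgal, the alpha chain of LFA-1, overlapped between the tissues. It had 923, 251, 369.8 and 399 CPM in skin 1 to 4, against 699.5, 759 and 470.5 CPM in SDLN 1 to 3 (chromosome 7, 127296260 to 127335138). Skin 1 was again the highest skin library and skin 2 the lowest, as for Itgb2. Its log2 fold change was -0.40 (SE 0.45, edgeR adjusted p = 0.742). Itgal over Itgb2 stood at -0.48, -0.37, -0.52 and -0.87 in skin, against -1.15, -0.94 and -1.51 in SDLN on the log2 scale. Every skin library was above every SDLN library (difference 0.64, exact permutation p = 0.0571, adjusted 0.103). Of the alpha chains that pair with Itgb2, Itgal made up the whole level per kb in skin 1, 2 and 3, 88.4% in skin 4 and 99.4% to 99.8% in SDLN. The remainder in skin 4 was Itgax at 22.04 CPM and Itgam at 16.97 CPM, the myeloid alpha chains, and neither had a count in another skin library.

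The collagen receptor chains Itga1 and Itga2 had higher mean values in skin and did not pass the test. Itga1 had 14.0, 0, 28.3 and 15.8 CPM in skin 1 to 4, against 0, 0.414 and 0.695 CPM in SDLN 1 to 3 (chromosome 13, 114953096 to 115101964). Skin 2 had no count, where 3 counts would be 0.243 CPM, and the SDLN libraries held 15 counts in all. The exons of Itga1 share 685 bases with Gm49395 on the same strand, 3.68% of the exon length. Itga1 had a log2 fold change of 5.26 (SE 2.41, edgeR adjusted p = 0.303), and DESeq2 called it (adjusted p = 0.0487, and 0.0487 to 0.691 over the 13 alternatives that kept it). Itga2 had 46.0, 4.53, 40.4 and 28.8 CPM in skin 1 to 4, against 3.46, 4.76 and 6.41 CPM in SDLN 1 to 3 (chromosome 13, 114833081 to 114932100). Here as well skin 2 lay among the SDLN libraries and the other skin libraries above them. The log2 fold change of Itga2 was 2.62 (SE 1.008, edgeR adjusted p = 0.207), and it passed without skin 2 (2.95, adjusted p = 0.0393) and with DESeq2 (adjusted p = 0.0243, and 0.0243 to 0.619 over all alternatives). Natural killer and innate lymphoid cells carry Itga1 and Itga2 as well. Of 7 such markers 4 had no count in skin, Ncr1, Klra8, Klre1 and Gata2, and the last 3 had none in SDLN either. The sum was 1.13 to 112 CPM in skin and 1.63 to 4.02 CPM in SDLN. In skin 4 Tyrobp had 89.0 CPM and Klrb1c 22.6 CPM, and Klrb1c had no count in the other skin libraries. Markers of macrophages and dendritic cells were also highest in skin 4. Platelets carry Itga2, and of 7 platelet markers 4, Ppbp and Gp5 among them, had no count in any library. The sum was 0 to 12.1 CPM in skin and 0.483 to 2.103 CPM in SDLN. Pf4, the most abundant, had 7.27, 0, 2.03 and 4.42 CPM in skin 1 to 4 and no count in SDLN. Like Itga2, Pf4 was highest in skin 1 and lowest in skin 2. Gp9 had 9.61 CPM in skin 3 and no count in the other skin libraries, and the platelet marker sum was highest in skin 3. The part of these cells in the Itga1 and Itga2 values was not tested.

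Itga1 and Itga2 are neighbours on the minus strand of chromosome 13, 20995 bases apart. Both were at their lowest skin level in skin 2, which is not particular to them, since skin 2 held the lowest skin value of 6 of the 10 chains. Their promoter windows are shown because the genes are neighbours (RefSeq, GRCm38.p6, chr13:115101965-115102214 and chr13:114932101-114932350, capitals as above).
Itga1: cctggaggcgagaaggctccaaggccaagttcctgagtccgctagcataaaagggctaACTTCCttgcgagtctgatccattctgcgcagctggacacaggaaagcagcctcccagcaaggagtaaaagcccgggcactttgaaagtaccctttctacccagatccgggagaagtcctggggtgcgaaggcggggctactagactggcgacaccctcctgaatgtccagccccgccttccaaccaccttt
Itga2: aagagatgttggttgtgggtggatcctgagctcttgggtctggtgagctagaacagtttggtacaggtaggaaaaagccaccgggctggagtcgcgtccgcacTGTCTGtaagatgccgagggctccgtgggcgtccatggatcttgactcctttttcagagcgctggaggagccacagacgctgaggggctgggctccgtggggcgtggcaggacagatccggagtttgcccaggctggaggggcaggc
The Itga1 window held 1 ETS match 192 bases before the start and the Itga2 window 1 SMAD match 147 bases before it, so the 2 windows shared none of the 4 motifs. Of the 10 chains, 5 had a promoter in the table, and the fifth, Itgb1, held 1 SMAD match.

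Itga6, the alpha chain of the laminin receptor, was lower in every skin library. It had 34.5, 106, 63.9 and 101 CPM in skin 1 to 4, against 154, 152 and 145 CPM in SDLN 1 to 3 (chromosome 2, 71745616 to 71858416). The SDLN values lay close together, and skin 1 was the lowest library. With a log2 fold change of -0.97 (SE 0.42), Itga6 did not pass (edgeR adjusted p = 0.266). Basal keratinocytes carry Itga6 too, and in skin 3, where keratinocyte markers were highest, it had 63.9 CPM. Another integrin chain, Itgb4, had 53.8 CPM in skin 3 and no count in the other skin libraries. The part of keratinocytes in the Itga6 values was not tested.

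Itgb1, the beta chain shared by the collagen, laminin and VCAM-1 receptors, had 76.5, 80.8, 174 and 135 CPM in skin 1 to 4, against 141, 128 and 134 CPM in SDLN 1 to 3 (chromosome 8, 128685654 to 128733200). Skin libraries lay on both sides of the SDLN libraries, with the highest in skin 3. Its log2 fold change was -0.21 (SE 0.36, edgeR adjusted p = 0.859). Keratinocyte and fibroblast markers were highest in skin 3 as well, and their part in the Itgb1 value was not tested. Itga1 over Itgb1 (log2 difference 4.45, exact permutation p = 0.114, adjusted 0.147), Itga6 over Itgb1 (-0.81, p = 0.229, adjusted 0.229, exact permutation) and Itgb1 over Itgb2 (0.90, p = 0.229, adjusted 0.229, exact permutation) overlapped between the tissues.

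The make-up of the alpha chains that can pair with Itgb1 differed more than Itgb1 itself. Per kb of exon, Itga4 and Itga6 led in SDLN, with 43.1% to 47.3% and 36.6% to 40.6% of the summed level of 12 alpha chains. Their order depended on the length used: with the longest transcript, Itga6 averaged 34.9 CPM per kb in SDLN and Itga4 27.8. In skin Itga4 held 0.0143% to 5.49% and Itga6 12.1% to 29.1%. Itgav, which pairs with several other beta chains too, held 27.6% to 59.5% in skin, against 7.08% to 8.09% in SDLN. Itga2 held 20.4%, 1.57%, 10.1% and 7.64% in skin 1 to 4, against 1.04% to 2.26% in SDLN. Of the chains outside the 10, Itga3 held 33.9% in skin 2 and 0.153% to 13.5% in the other skin libraries, and Itga9 held 20.6% in skin 3 with no count in the other skin libraries. The summed level was 31.7 to 56.3 CPM per kb in skin and 39.7 to 46.5 CPM per kb in SDLN. These shares are a description, since a fall in 1 chain raises the others. Keratinocyte and fibroblast marker sums were highest in skin 3, and the part of those cells in the shares was not tested.

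**Figure D4:**
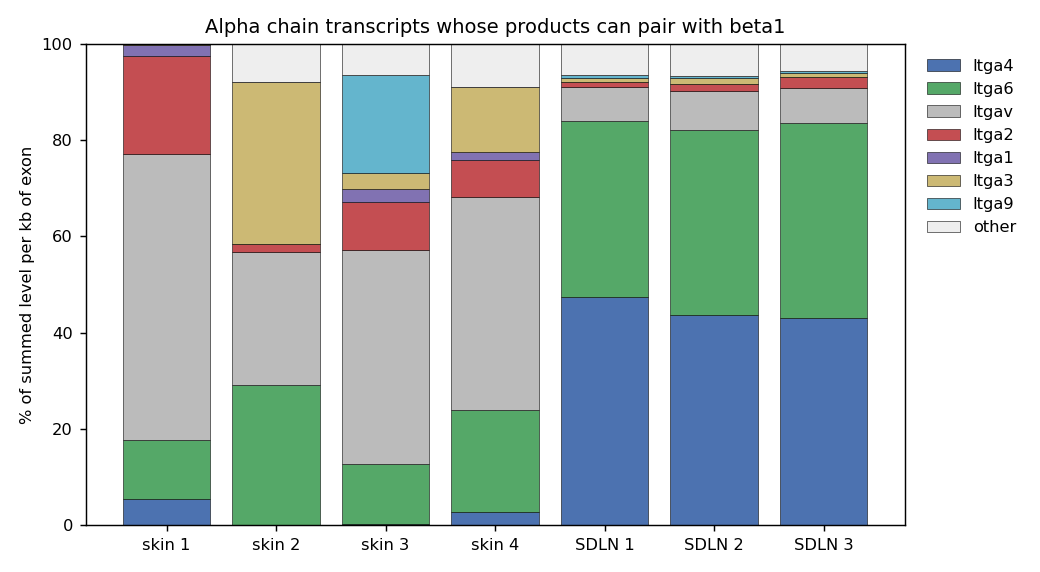
Share of each alpha chain in the summed level per kb of the 12 alpha chain transcripts whose products can pair with beta1 (vertical axis, percent), per library, skin left of SDLN. The Itga4 band covers at least 43.1% of each SDLN bar and at most 5.49% of each skin bar, and the skin bars differ from each other in Itga2, Itga3 and Itga9.

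Itgb3, the beta chain of the vitronectin receptor, differed between the tissues by less than the spread of the skin libraries. It had 53.2, 38.1, 42.7 and 109 CPM in skin 1 to 4, against 57.2, 53.2 and 45.4 CPM in SDLN 1 to 3 (chromosome 11, 104608000 to 104670476). The skin 4 value stood above the rest, and 2 of the other skin values were under all SDLN values. The log2 fold change was 0.23 (SE 0.50, edgeR adjusted p = 0.892) and turned to -0.23 without skin 4. That library also had the highest sum of macrophage and dendritic cell markers, and their part in that value was not tested.

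On the scale of CPM per kb of exon, on which chains can be set against each other, the order of the 10 chains differed between the tissues. In skin it was Itgae at 421 ± 135 (SD, n = 4), Itgb7 at 243 ± 61.6, Itgb2 at 236 ± 136, Itgal at 74.0 ± 45.4, Itgb1 at 28.6 ± 11.4, Itgb3 at 10.3 ± 5.57, Itga6 at 8.47 ± 3.74, Itga2 at 4.20 ± 2.58, Itga4 at 0.812 ± 0.903 and Itga1 at 0.780 ± 0.623. In that order Itgb1 and Itgb3 were the 1 pair of neighbours whose skin ranges did not overlap. In SDLN the order was Itgb2 at 476 ± 35.1 (SD, n = 3), Itgb7 at 139.9 ± 5.57, Itgal at 97.9 ± 23.2, Itgae at 62.9 ± 6.60, Itgb1 at 32.9 ± 1.52, Itga4 at 19.4 ± 2.46, Itga6 at 16.7 ± 0.491, Itgb3 at 8.80 ± 1.02, Itga2 at 0.684 ± 0.207 and Itga1 at 0.0199 ± 0.0188. There no neighbours overlapped in range. Itgae thus led the order in skin and stood below 3 other chains in SDLN, and Itga4 was lower in the order in skin than in SDLN. With the longest transcript as the length, Itga4 and Itga6 changed places in SDLN, Itga6 and Itgb3 in skin, and Itga4 and Itga1 in skin.

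The chains varied more over skin than over SDLN libraries for 9 of the 10, Itga1 being the exception. The coefficient of variation over skin was lowest for Itgb7 (0.254) and Itgae (0.319) and highest for Itga4 (1.11), against 0.0295 for Itga6 to 0.946 for Itga1 in SDLN. The median over all tested genes was 0.750 in skin and 0.187 in SDLN. Of the 10 chains, skin 1 held the highest skin value of 5 and the lowest of 2, and skin 2 held the lowest skin value of 6 and the highest of 2.

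Among the other 16 integrin chain genes, 10 were tested, and 2 passed, both higher in skin, with 8 not passing and a median log2 fold change of 1.34. Over all tested genes, 3.28% were called higher and 3.96% lower. The 2 chains that passed activate TGF-beta when paired. Itgav (log2 fold change 2.60, SE 0.37, edgeR adjusted p = 0.0115) and Itgb8 (2.49, SE 0.48, adjusted p = 0.0354) did not overlap between the tissues. No chain was called lower: the count was 0 in edgeR, in DESeq2 and in limma-voom, and also 0 at an unadjusted edgeR p below 0.05. No call among these chains was made without any 1 of the SDLN libraries. There were 2 lower calls without skin 3 and 2 without skin 4. Itgad had no count in skin or SDLN, and Itgb6, which epithelial cells carry, had counts in skin 3 alone, at 31.2 CPM.

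Around the integrins, 27 of 30 genes that activate them from inside the cell or tie their tails to actin were tested, and 2 were higher in skin, 0 were lower and 25 did not pass, a share close to the 7.24% of all tested genes that passed. Rap1b, the small GTPase that switches integrins on through talin, had 360.3, 703, 374 and 573 CPM in skin 1 to 4, against 195, 200.5 and 222 CPM in SDLN (log2 fold change 1.29, SE 0.30, edgeR adjusted p = 0.0434). Vcl, vinculin, which links talin to actin, had 55.04, 38.8, 82.2 and 48.3 CPM in skin 1 to 4, against 5.70, 13.3 and 8.96 CPM in SDLN (log2 fold change 2.59, SE 0.62, edgeR adjusted p = 0.0443). Both rose in every skin library. Neither passed with upper-quartile scaling, with no filter or a mean of at least 5 CPM, with a replicate block, without skin 4, or without any 1 of the SDLN libraries. Rap1b also failed without skin 2, and Vcl without skin 3 and with limma-voom. The list's median log2 fold change was 0.40, against 0.05 over all tested genes. Beside the 0 lower calls of edgeR, DESeq2 made 3 and limma-voom 2, and edgeR made 4 without skin 1. In that direction 3 genes, Actn1, Parvg and Skap1, had an unadjusted edgeR p below 0.05. They were lower in every skin library and did not pass. Actn1 averaged 2.58 CPM in skin and 94.2 CPM in SDLN (log2 fold change -5.18, SE 1.53, edgeR adjusted p = 0.0980).

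Of 12 membrane proteins that associate with integrins, 11 were tested, and 1 was higher in skin, 0 were lower and 10 did not pass. Over all tested genes, 3.28% were called higher and 3.96% lower. Slc3a2 (CD98 heavy chain), an amino acid transporter subunit that binds beta chain tails, had 142, 363, 143 and 227 CPM in skin 1 to 4, against 31.5, 33.4 and 47.0 CPM in SDLN (log2 fold change 2.55, SE 0.44, edgeR adjusted p = 0.0243). It passed without any 1 skin library and failed without any 1 SDLN library. The list's median was -0.44. By edgeR, DESeq2 and limma-voom alike, 0 partners were called lower, and 0 had an unadjusted edgeR p below 0.05 in that direction.

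Of 18 ligands, 6 passed the filter on low counts. Of those not tested, Col4a1 (185 CPM), Col1a1 (126 CPM), Lamb1 (123 CPM) and Col4a2 (86.5 CPM) reached these levels in skin 3 and at most 0.552 CPM in the other skin libraries. Of the 6 tested, 2 were higher in skin, 0 lower and 4 did not pass, beside 3.28% higher and 3.96% lower over all tested genes. Icam1, a ligand of LFA-1, had 465, 826, 542 and 791 CPM in skin 1 to 4, against 140.5, 145 and 152 CPM in SDLN (log2 fold change 2.17, SE 0.29, edgeR adjusted p = 0.00998). Icam2, another ligand of LFA-1, was lower in every skin library, at 19.9, 0.162, 19.4 and 51.8 CPM, against 185, 147 and 213 CPM in SDLN. It did not pass (log2 fold change -2.99, SE 1.18, edgeR adjusted p = 0.220). Lamc1, a laminin chain, had 176, 373, 337 and 176 CPM in skin 1 to 4, against 17.2, 16.4 and 14.4 CPM in SDLN (log2 fold change 4.05, SE 0.42, edgeR adjusted p = 0.00388). Lamc1 passed in all 17 alternatives, and Icam1 failed without any 1 of the SDLN libraries. In skin 3 Cdh1, the E-cadherin gene, reached 47.6 CPM beside at most 0.571 CPM in the other skin libraries and at most 1.10 CPM in SDLN. Beside the 0 lower calls of edgeR, limma-voom made 0 and DESeq2 made 1, and 1 ligand, Icam2, had an unadjusted edgeR p below 0.05 in that direction. The list's median log2 fold change was 4.01, also with Col3a1, which had no SDLN count, set at its bound. Of the genes behind it, Cdh1, Col1a2 and Col3a1 had 540 of 548, 3019 of 3039 and 16481 of 16519 skin counts in skin 3, the library with the highest keratinocyte and fibroblast marker sums. The part of those cells in the ligand values, Icam1 and Lamc1 included, was not tested.

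**Figure D5:**
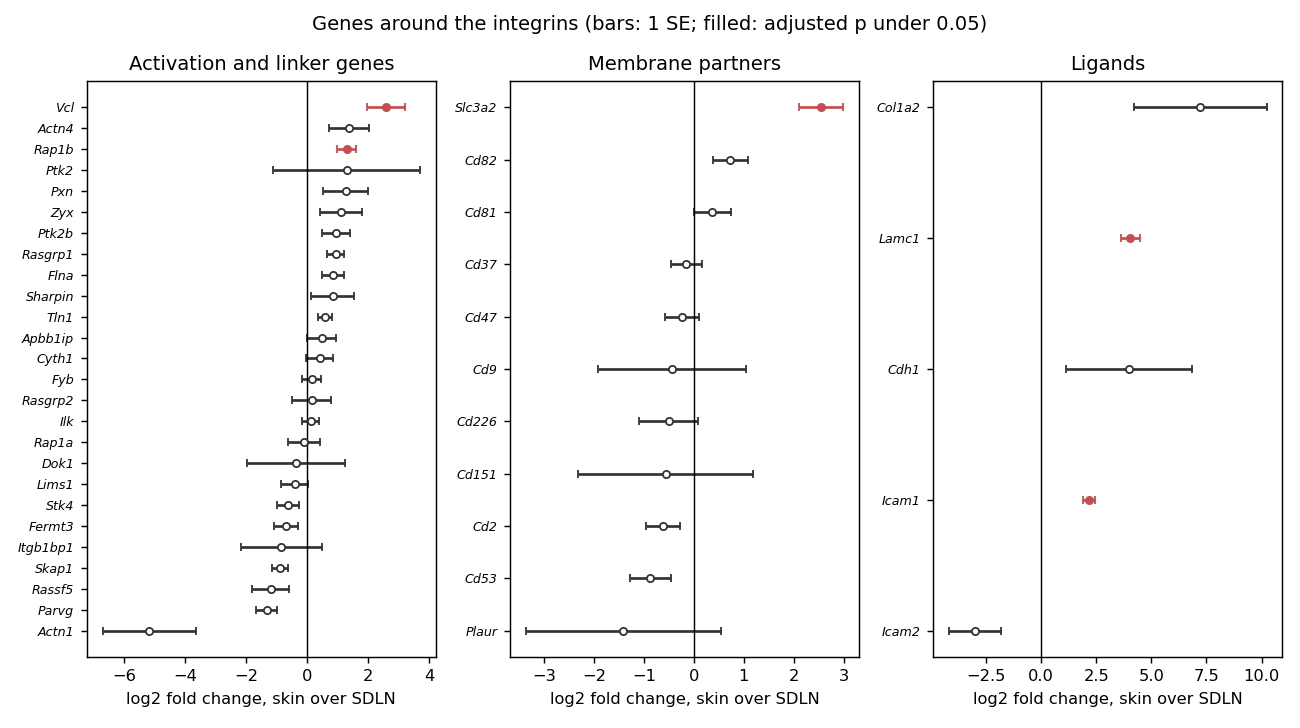
Log2 fold change, skin over SDLN (horizontal axes, each with its own scale), with 1 standard error, for tested activation and linker genes, membrane partners and ligands that had more than 3 counts in each tissue. The 5 filled points, Vcl, Rap1b, Slc3a2, Lamc1 and Icam1, passed the test and are all higher in skin.

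The genes whose profile over the 7 libraries came nearest to that of Itgae were sought among 7046 genes that averaged 20 CPM or more, by the root mean square distance of centred log2 CPM. They were Ide, the insulin-degrading enzyme (0.154), Dpy19l1 (0.201), Klf6, a zinc finger transcription factor (0.218), Dusp5, a phosphatase of ERK kinases (0.225), and Whsc1, a histone methyltransferase (0.246), while the median gene stood at 1.65. Ide had 321, 233, 143 and 252 CPM in skin 1 to 4, against 40.2, 37.9 and 42.0 CPM in SDLN 1 to 3. Ide was highest in skin 1 and lowest of the skin libraries in skin 3. That order, shared with Itgae, follows from choosing genes by nearness of profile.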

How the data were processed

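Messenger RNA of 7 Treg libraries was analysed. The authors deposited 1 table of whole-number counts, unnormalized, with a row for each gene symbol. The submitters' processing notes name SAMtools 0.1.19.0, HTSeq 0.6.1, Bowtie2 2.1.0.0, TopHat2 2.0.12, CASAVA 1.8.2 and the build mm10. Per the labels' protocols, cDNA came from a SMARTer ultra low input kit. The counting annotation is not given in the sources used here, nor is its strand setting. The 5 summary lines, 76.2% to 80.8% of each column's total, were left out.

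Genes were kept by filterByExpr (minimum count 10) in edgeR 4.0.16 (R 4.3.3), scaled by TMM and tested by quasi-likelihood (robust) in a model of tissue alone. SEs were derived from the F statistic. CPM used the scaled totals of kept genes, and lengths and positions came from GENCODE M21. Ratios were tested by exact permutation, two-sided, over 35 splits. The test was checked on simulated counts.

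The members and lists were chosen with earlier results of these data known. Named genes are the members, up to 2 called genes per direction of each other list with the smallest adjusted p, the most abundant marker of lists discussed, and the 5 profiles nearest to Itgae. Itgav, Itgb8, Cdh1, Icam2, Actn1, Parvg, Skap1, Col3a1, Col1a1, Col1a2, Col4a1, Col4a2, Lamb1, the markers with no count in skin that are named, Cd8a, Foxp3, Ikzf2, Tigit, Klrb1c, Gp9, Itga3, Itga9, Itgam, Itgax, Itgad, Itgb4 and Itgb6 were singled out after their values were seen. Other marker sums were, in skin and SDLN, 2.99 to 38.4 and 78.6 to 102 CPM for B cells (Cd79b), 0 to 7.93 and 0 CPM for neutrophils (S100a8), 0 to 26.2 and 6.64 to 12.6 CPM for mast cells (Kit), 16.2 to 91.3 and 389.7 to 549 CPM for endothelial cells (Pecam1, which T cells also carry), and 0.0713 to 27.1 and 21.0 to 26.4 CPM for melanocytes (Pmel). Protein sequences were not used here. Alternatives were other scalings and filters, DESeq2 1.42.0, limma-voom (limma 3.58.1), no robust fitting, a replicate block, an adjusted p under 0.01 and each library left out. Same-numbered libraries of the tissues were not treated as pairs.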

Additional observations from a re-analysis of the deposited data

Results flagged for a closer look

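The ratio of Itga1 to Itgb1 had 1 skin library far from the others. Its log2 value was -10.97 in skin 2 and -2.45, -2.61 and -3.10 in skin 1, 3 and 4, so the gap to the nearest took up 0.924 of the range, above Dixon's critical value for 4 libraries. Skin 2 had no count of Itga1, so its value is set by the 0.5 added to each count. Chance alone flags about 1 in 20 such groups, and 19 were examined.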

How the results depend on the processing

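Of the 10 chains, 9 kept their direction under each alternative in which they were tested (Itga1 was tested in 13 of 17), and the exception was Itgb3, which was -0.24 with a replicate block over 6 libraries and -0.23 with one over 7 or without skin 4. Same-numbered libraries of the tissues deviated together by correlations of 0.0672, -0.00176 and -0.0401, so the numbers were not read as pairs. With the block over 6 or 7 libraries the log2 fold change of Itgae was 2.67 and 2.68 and did not pass, that of Itga4 was -7.44 and -7.42, all genes gave 32 and 44 higher and 10 and 12 lower calls, and the 10 chains, the other integrins, the activation and linker genes and the membrane partners gave 0 higher calls.

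DESeq2 called Itgb7 (0.79), Itga1 (5.28), Itga2 (2.61) and Itga4 (-4.59), so 4 chains were higher and 1 lower, with 923 genes higher in all, 3 activation and linker genes lower and 1 ligand lower. Limma-voom called Itga4 (-6.60), 1 chain lower, 729 genes lower in all, 1 other integrin higher, and 1 activation and linker gene higher with 2 lower. Without a filter there were 188 higher and 70 lower calls, with 1 other integrin and 0 activation and linker genes higher. A mean of at least 5 CPM gave 100 lower calls (and 0 activation and linker genes higher). Upper-quartile scaling gave 0 activation and linker genes higher and 1 lower, and no scaling gave 1 lower. At an adjusted p under 0.01 there were 72 higher and 16 lower calls, and 0 other integrins, activation and linker genes or membrane partners were higher. Other scalings moved the median log2 fold change of all genes by -0.0983 to -0.0057.

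Leaving out 1 library at a time gave 33 to 582 higher and 9 to 822 lower calls. Without SDLN 1, 2 and 3 there were 39, 33 and 61 higher calls, and without skin 1 there were 582. Calls were 0 to 2 higher and 0 to 1 lower for the 10 chains, 0 to 3 and 0 to 2 for other integrins, 0 to 3 and 0 to 4 for activation and linker genes, 0 to 1 higher for membrane partners, and 1 to 2 and 0 to 1 for ligands. The log2 fold change was 2.54 to 2.92 for Itgae, 4.67 to 6.05 for Itga1, -5.26 to -4.17 for Itga4, 2.33 to 2.95 for Itga2, -1.46 to -0.79 for Itgb2 and -0.23 to 0.38 for Itgb3. All 99 alternative values of the ratios kept their direction, with 7.76 to 10.23 for Itgae over Itga4 and 3.06 to 6.51 for Itga1 over Itgb1 when 1 library was left out. Adjusted p-values were computed for the other offsets and for medians alone, none below 0.103.

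With the longest transcript as the length, the level per kb was 17.7 for Itga6 in skin, and in SDLN 74.9 for Itgae, 27.8 for Itga4, 35.2 for Itgb1, 34.9 for Itga6 and 123 for Itgal. Few counts limit the precision of Itga1 and Itga4, of which skin 2 held 0 and 1 counts, although its total was above those of skin 1 and skin 3.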
